A study of Mus musculus with 14 samples.

Results

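The cytosolic ribosomal protein genes were taken as the protein-coding genes whose symbol is Rpl or Rps followed by a number and, at most, an a, x or l. This rule found 76 of the 49583 genes in the deposited table, 46 of the large subunit (Rpl) and 30 of the small subunit (Rps). Transcript levels were measured by RNA sequencing in 14 samples of wild type C57BL/6 mice, 2 in each of 7 groups, all sorted to a stated purity above 98%. Spleen Ter cells (Ter-119+CD45-Lin-) and the control, CD45+Ter-119- spleen cells, came from tumour-bearing mice, and liver Ter cells were sorted with the same Ter gate from embryonic liver at E14.5. Bone marrow gave the other 4 groups: HSC (c-Kit+Sca-1+Lin-), CLP (c-Kit+Sca-1+IL-7R+Lin-), MEP and CMP. The gates given for MEP and CMP share c-Kit+, low Fcγ receptor, Lin-, IL-7R- and Sca-1-, and are set apart by CD34, positive for MEP and negative for CMP. Which tumour the mice bore, how many animals were pooled and whether a group's 2 samples are from different animals remains unstated in the labels; the p-values therefore measure only the spread between these samples, which may be technical.

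A ribosome is built from ribosomal RNA and a fixed set of proteins, nearly all of them present in a single copy per subunit, so that cells need them in matched amounts. The mRNAs share a short run of pyrimidines at their 5' end, the terminal oligopyrimidine (TOP) motif, through which mTOR and Larp1 control their translation. Red cell precursors depend on an ample supply of ribosomes for globin synthesis: in Diamond-Blackfan anaemia, loss of 1 copy of a ribosomal protein gene mainly harms the erythroid lineage. Nearly every ribosomal protein gene also has many processed pseudogenes, copies of its mRNA elsewhere in the genome, which makes short reads from these genes hard to place.

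Pyrimidine runs were looked for at the members' start sites. RefSeq promoter sequence (GRCm38.p6) held 69 start sites of 57 members. In a window of 15 bases before and 15 bases from the annotated start, 26 of the 69 (37.7%) had an unbroken run of at least 8 C or T on the coding strand, against 12.003% of all 32851 start sites in that table. The run held the first transcribed base itself at 15 of the 69 (21.7%) and at 3.74% of all start sites; other runs may lie wholly before or after it. The windows below, 30 bases each, are of some members whose levels are described further on, with runs of at least 8 in capitals. Where a member had several start sites, the one with the longest run is shown. In the 7 windows with capitals the run holds the first transcribed base, the 16th letter. Over all members this was so at 15 of the 26 start sites with a run.
Rpl7a (chr2:26910792-26910821, + strand): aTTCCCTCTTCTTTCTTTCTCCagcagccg
Rpl35 (chr2:39005117-39005146, - strand): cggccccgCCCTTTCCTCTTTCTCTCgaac
Rpl14 (chr9:120571502-120571531, + strand): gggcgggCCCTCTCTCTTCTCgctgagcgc
Rpl28 (chr7:4792950-4792979, + strand): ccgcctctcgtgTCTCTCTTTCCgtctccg
Rps6 (chr4:86857353-86857382, - strand): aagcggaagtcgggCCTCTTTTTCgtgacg
Rps27 (chr3:90213634-90213663, - strand): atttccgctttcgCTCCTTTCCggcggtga
Rps9 (chr7:3704026-3704055, + strand): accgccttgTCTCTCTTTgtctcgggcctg
Rps2 (chr17:24720048-24720077, + strand): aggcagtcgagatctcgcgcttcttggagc
Rpl24 (chr16:55966260-55966289, + strand): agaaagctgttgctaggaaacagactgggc
The run was longest in Rpl7a (21 bases) and Rpl35 (18 bases) and 9 bases long in Rps27 and Rps9. Rpl24 and Rps2 had no run of that length in the window, which says only that these letters are not at the annotated start. Over the full 300 bases of each promoter, on both strands, CCGGAA was present at 46.4% of the members' start sites and 14.9% of all, AAGATGG at 15.9% and 6.34%, and TATAAA at 7.25% and 13.6%.

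The deposited table holds 1 value per gene and group, the mean FPKM (fragments scaled to exon length and to library size), in 2 number formats that were not made alike: control, HSC and CLP in the first, spleen Ter, liver Ter, MEP and CMP in the second. Within the second format the 2 libraries of each group, A the deeper and B the other, could be recovered from the printed digits, with depths of 13413530 to 28537889 fragments. Of the 76 members, 61 were recovered in all 8 libraries, 14 were not and are given by the authors' means without a test, and Rpl10l was listed at 0 in every column. Levels are not compared with a test across formats.

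Before the levels are read, several groups need a remark. The libraries labelled MEP went against their label: the 7 erythroid markers summed to 9.76 FPKM and 3 of them reached 1 FPKM, with Hbb-bs at 4.20, whereas the 7 neutrophil markers, all above 1 FPKM, summed to 169083 FPKM. Cd34 was 0.0694 FPKM in the column labelled MEP and 29.7 in the column labelled CMP, the reverse of the gates in the labels. Between the libraries of spleen Ter there was a wide gap: the erythroid factor Klf1 measured 17.5 FPKM in library A but 0.584 in B. More than 2-fold apart in this pair were 22.2% of the tested genes, whereas the pairs of the other 3 groups had 0.633% to 1.95%. Spleen Ter, gated as CD45-, held 38348 FPKM of the erythroid, 24289 of the neutrophil, 1126 of the B cell and 144 of the T cell markers. The neutrophil markers summed to 11248 FPKM in HSC, 14827 in CLP and 5533 in CMP. In these bulk samples fewer cells of a type and less RNA per cell cannot be told apart.

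Ribosomal protein transcripts took up very different shares of the 7 columns. In the first format the members held 16.7% of the control's FPKM, 13.1% of those of HSC and 12.3% of those of CLP, with medians of 555, 462 and 454 FPKM per gene. In the second format the share was largest in CMP (14.49%), followed by spleen Ter (6.46%), liver Ter (3.95%) and MEP (2.63%), with medians of 403, 232, 132 and 110 FPKM. The order was shared by most members. Of the 73 at 1 FPKM or more in the second format, 63 had their highest level in CMP and 10 in spleen Ter. The lowest level was in MEP for 57. These orders were not counted over all genes, of which 60.2% had both MEP libraries below both CMP libraries. Large and small subunit genes went alike, holding 7.10% and 7.39% of FPKM in CMP, and 1.27% and 1.37% in MEP. Globin transcripts took 47.6% of FPKM in liver Ter and 13.7% in spleen Ter. With the globin genes left out of the total, the members' share was 7.54% in liver Ter and 7.49% in spleen Ter. The shares of summed FPKM in these neighbours were thus nearly equal without the globin genes. The order of the members' levels did not turn when the globin genes were left out of the fragment totals. Their median log2 fold change in spleen Ter against liver Ter stayed positive. In the test used below, 53 members kept their result and 6 lost the call.

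**Figure D1:**
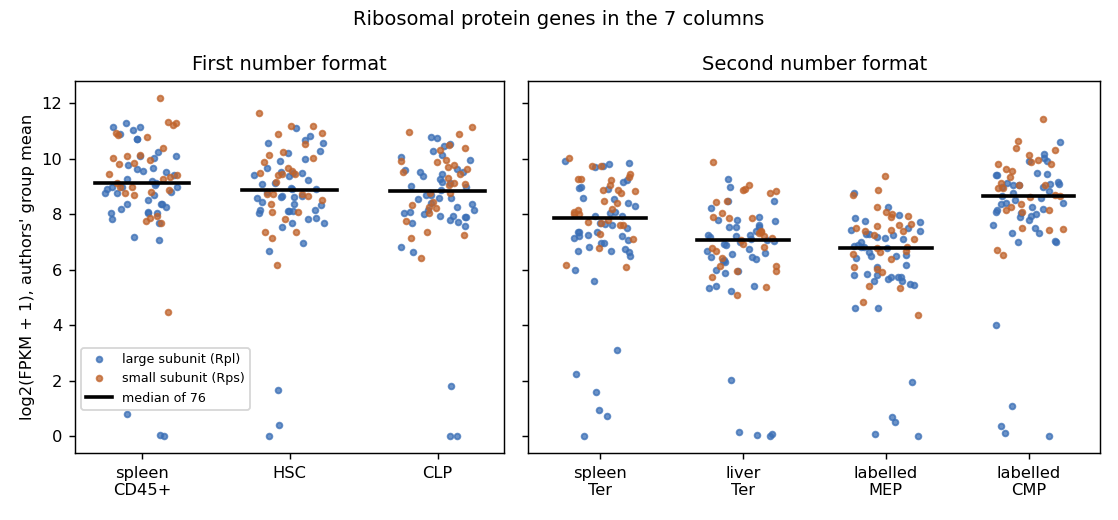
Level of each of the 76 ribosomal protein genes, as log2(FPKM + 1) of the authors' group mean, in the 3 columns of the first number format (left) and the 4 of the second (right); points are genes, coloured by subunit, and bars are medians. The column labelled CMP, with a median of 403 FPKM, stands above the other 3 of its format, and a few large subunit genes lie near 0 in every column of that format.

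Levels in FPKM also differed widely among the members within a column. Exon length in FPKM can exceed that of the mRNA, and unequally so. Rps15a has 6270 annotated exonic bases beside a coding transcript of 640, and Rpl36 has 383 for both. The part of this in the ranks below was not tested. Rps12, a small subunit protein, had the highest mean level of the second format (2772 FPKM in CMP, 934 in liver Ter, 663 in MEP and 609 in spleen Ter), followed by Rpl8, Rps24, Rps15 and Rps23. In the first format Rps24 led, at 2278 FPKM in CLP, 3216 in HSC and 4653 in the control, followed by Rps12, Rpl23a, Rps26 and Rps29. At the low end of both formats were the paralogs Rpl10l, Rpl39l and Rpl3l, all under 2.5 FPKM. The next lowest were Rps27l and Rpl18 in the first format and Rpl24 and Rpl13a in the second.

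Whether the 2 libraries of a group told the same story was checked member by member. No member of the 61 was more than 2-fold apart in FPKM + 1 between libraries of any group. In spleen Ter 55 of 61 members were lower in library A, by a median of 0.33 on the log2 scale; over all 12953 genes the median difference of A from B was -0.40, so the members went with the table as a whole. The largest gap was that of Rpl38 (-0.90). Liver Ter (median -0.02), MEP (0.13) and CMP (-0.06) were closer. Klf1 differed between the same 2 libraries, as given above; its part in the difference was not tested.

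In FPKM as deposited the widest median change of the class was between the libraries labelled MEP and those labelled CMP; with median-of-ratios scaling liver Ter against MEP was wider (1.35, beside -1.15 here). Every tested member had both MEP libraries below both CMP libraries (59 of 59), where 60.2% of all genes did. Of the 59 members tested, 58 (98.3%) passed the test as lower in MEP and none as higher, where 24.4% of all 12953 tested genes were called lower and 7.27% higher. Calls needed limma's p, adjusted by Benjamini-Hochberg, to be under 0.05 and FPKM + 1 to differ at least 2-fold; without the fold limit the members' count was again 58 and that of all genes 35.8%. The median log2 fold change was -1.90 (interquartile range over members -2.11 to -1.71), beside -0.41 over all genes. It was -1.91 for the 22 small subunit genes and -1.90 for the 37 of the large subunit. Scaling the libraries by median-of-ratios gave a median of -1.15 with 42 members lower, and quantile normalization -1.39 with 51. The 14 members without recovered libraries were also all at least 2-fold lower in the mean, with a median log2 ratio of -2.04.

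Of the tested members Rpl12, a protein of the ribosomal stalk base, fell furthest: it was 61.0 and 50.5 FPKM in the MEP libraries and 331 and 351 in CMP, a log2 fold change of -2.60 (SE 0.24, limma adjusted p = 0.000385). The authors' means of Rpl10a, which was not tested, gave a log2 ratio of -2.70. The next tested members were Rpl14, Rpl36a and Rps2. Rpl14 measured 99.5 and 85.1 FPKM in MEP and 489 and 523 in CMP. Rpl36a stood at 47.5 and 38.0 against 226 and 244. The libraries of each gene lay close together and far from the other group. Rps2, a protein of the mRNA entry channel, was 178 and 157 FPKM in MEP and 866 and 907 in CMP, a log2 fold change of -2.40 (SE 0.11).

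The smallest falls among tested members were seen for Rpl24, Rps9 and Rpl9. Rps9, a small subunit protein that helps keep decoding accurate, was 250 and 234 FPKM in MEP and 498 and 495 in CMP, a log2 fold change of -1.04 (SE 0.12, limma adjusted p = 0.00075). Rpl24 was the member not called (-0.55, SE 0.24, adjusted p = 0.10), at levels of 1.45 FPKM or less in these 4 libraries. The neutrophil marker sum was 169083 FPKM in MEP and 5533 in CMP, all 7 genes of the list being above 1 FPKM in both. Elane alone of the list was lower in MEP, at 762 FPKM against 2673 in CMP. The part of the neutrophil transcripts in the fall of the ribosomal protein genes was not tested.

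**Figure D2:**
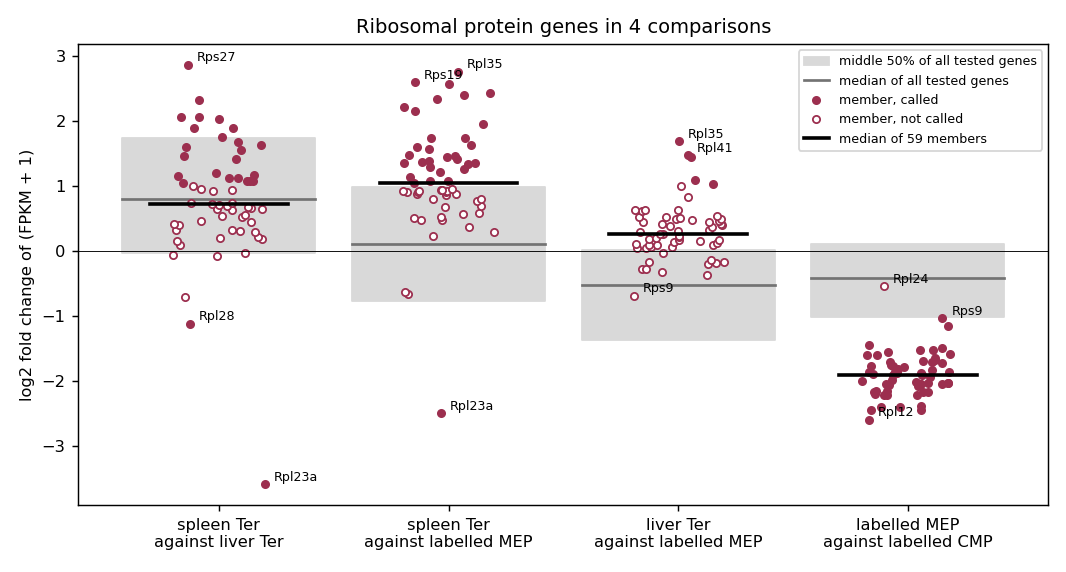
Log2 fold change of FPKM + 1 for the 59 tested ribosomal protein genes in each of 4 comparisons (filled points called, open points not called), with the median and middle 50% of all 12953 tested genes in grey. In labelled MEP against labelled CMP the members form a narrow band around -1.90, all but Rpl24 below the grey band, while in spleen Ter against liver Ter they spread from -3.59 to 2.86 around nearly the same median as all genes.

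Spleen Ter cells were set against liver Ter cells, which pass the same gate in the embryo. Of the 59 tested members, 23 (39.0%) were called higher in spleen Ter and 2 (3.39%) lower. Of all tested genes 42.8% were called higher and 11.7% lower. The members' median log2 fold change of 0.71 lay 0.08 below that of all genes (0.79). How near the class lay to all genes rested on the pseudocount. With 0.1 in place of 1, the members' median lay 0.55 below an all-gene median of 1.28. The direction of the class rested on the scaling: with median-of-ratios scaling, which moves the median of all genes to 0.08, the members' median was -0.52, with 3 called higher and 10 lower, and with quantile normalization it was 0.21, with 9 higher and 3 lower. The members spread more than in the other comparisons, with an SD of 0.93 over the 59 log2 fold changes, beside 0.85 in spleen Ter against MEP, 0.45 in liver Ter against MEP and 0.35 in MEP against CMP. Without a fold limit 40 members were higher (53.4% of all genes) and 3 lower (15.6%); the libraries did not overlap for 47 higher (62.8%) and 3 lower (19.8%). Because the spread between libraries was pooled over the 4 groups and the spleen Ter pair differed most, standard errors for spleen Ter may be too small.

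Rps27, a zinc finger protein of the small subunit, rose most of the tested members. The libraries of spleen Ter held 909 and 1150 FPKM, those of CMP 507 and 480, of MEP 175 and 169, and of liver Ter 135 and 146. The log2 fold change against liver Ter was 2.86 (SE 0.13, limma adjusted p = 9e-06), and 1.61 with median-of-ratios scaling. Rps27 was thus the highest of all members in spleen Ter, above CMP, although most members were lower there than in CMP.

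Rps19 and Rpl37a were also among the largest rises. Rps19, the gene most often mutated in Diamond-Blackfan anaemia, measured 244 and 273 FPKM against 59.9 and 62.6 (2.06, SE 0.11). For Rpl37a the values were 475 and 520 against 118 and 121 (2.05, SE 0.10). In each case both spleen libraries lay above both liver libraries; with median-of-ratios scaling Rps19 (0.82) and Rpl37a (0.81) were under the 2-fold limit.

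Only Rpl23a and Rpl28 were called lower in spleen Ter. Rpl23a, which sits at the exit of the nascent chain tunnel, was at 8.91 and 6.41 FPKM in the spleen and 107 and 97.8 in the liver libraries, a log2 fold change of -3.59 (SE 0.16, limma adjusted p = 8.9e-06). Of the exonic bases of Rpl23a, 59.7% overlap exons of Tlcd1 on the opposite strand, which was 17.5 FPKM in liver Ter and at most 0.666 in the other 6 columns. As no source states that strand was used, reads of the pair cannot be told apart. Rpl28 was at 86.2 and 118 FPKM in spleen Ter, against 224 and 218 in liver Ter (-1.12, SE 0.15); without spleen Ter library A it was -0.90 and not called. Rpl7a, at 145 and 147 FPKM against 239 and 241, was lower by less than 2-fold (-0.71, SE 0.10). The erythroid marker sum was 38348 FPKM for spleen Ter and 122860 for liver Ter, all 7 genes above 1 FPKM in both. The 4 B cell markers summed to 1126 and 1.42 FPKM, with Ms4a1 at 0 in liver Ter. The 4 T cell markers summed to 144 and 0.0474, with Cd3e and Cd8a at 0 there. The 7 neutrophil markers summed to 24289 and 285. The part of these cells in the differences was not tested.

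**Figure D3:**
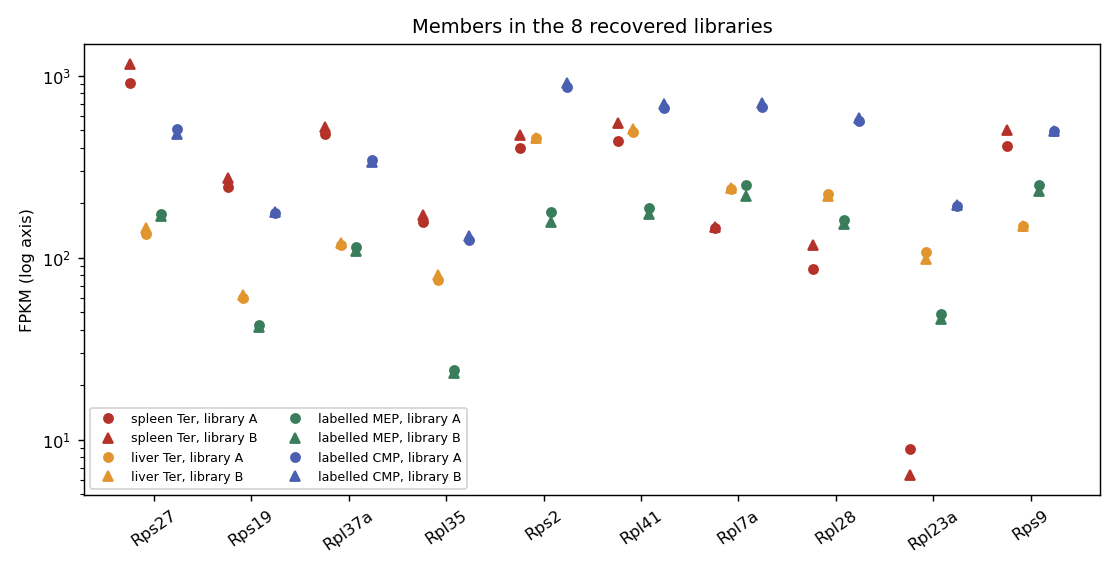
FPKM on a log axis of 10 ribosomal protein genes in each of the 8 recovered libraries; circles are library A and triangles library B of a group. The 3 genes at left (Rps27, Rps19 and Rpl37a) are higher in both spleen Ter libraries than in either liver Ter library, whereas Rpl7a, Rpl28 and Rpl23a are lower, and labelled CMP is above labelled MEP for every gene shown.

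Against the libraries labelled MEP, spleen Ter had more transcript from most members. Of 59, 30 (50.8%) were called higher and 1 lower, where 23.3% of all genes were called higher and 19.3% lower, and the median log2 fold change was 1.04 beside 0.10 over all genes. The number higher was 42 without spleen Ter library A and 27 without library B, and quantile normalization gave 17 higher and 3 lower with a median of 0.56. Rpl35, which binds at the tunnel exit, rose most of the tested members: 158 and 172 FPKM in spleen Ter against 24.1 and 23.1 in MEP, a log2 fold change of 2.75 (SE 0.11, limma adjusted p = 1.8e-05). Of the exonic bases of Rpl35, 66.2% overlap Wdr38 on the opposite strand, which was at most 0.175 FPKM in any column. The authors' means of Rpl13, which was not tested, gave a log2 ratio of 2.92. Rps19 (2.59, SE 0.11) and Rps27 (2.57, SE 0.13) came next among the tested, and both had large rises against liver Ter too; the 2 comparisons use the same spleen libraries. Without a fold limit 51 members were higher (31.6% of all genes) and 3 lower (26.6%), and the libraries did not overlap for 55 higher (40.5%) and 3 lower (34.8%). Rpl23a was the member called lower, at 8.91 and 6.41 FPKM against 49.1 and 45.9 (-2.50, SE 0.16).

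Liver Ter was then compared with the libraries labelled MEP. The members called higher in liver Ter were 5 of 59 (8.47%), where 8.77% of all genes were called, and none was called lower, where 33.1% of all genes were. Their median log2 fold change was 0.27, beside -0.53 over all genes. This count rested on the scaling: median-of-ratios scaling, which brings the all-gene median to 0.00, called 48 members higher with a median of 1.35. The 5 were Rpl35, Rpl41, Rps2, Rpl23a and Rps27l. Rpl41, the smallest ribosomal protein, was 492 and 511 FPKM in liver Ter and 187 and 174 in MEP (1.47, SE 0.13). Rps2 measured 456 and 457 against 178 and 157 (1.44, SE 0.11). For Rpl35, with the overlap named above, the levels were 75.5 and 80.2 against 24.1 and 23.1 (1.68, SE 0.11). Without a fold limit 19 members were higher (12.5% of all genes) and 2 lower (42.9%), and the libraries did not overlap for 44 higher (21.6%) and 10 lower (66.6%). In the other direction Rps9 was 149 and 148 FPKM in liver Ter and 250 and 234 in MEP (-0.70, SE 0.12), a difference that passed the p threshold but not the 2-fold limit.

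Within the first format no test was possible, since each column is a mean alone. CLP and HSC were close: no member of 74 was 2-fold apart, where 2.31% of 14517 genes had at least 2-fold more transcript in CLP and 2.91% at least 2-fold less, and the median log2 ratio was -0.08. The sign of that median turned with quantile normalization of the columns (0.027). The largest difference was Rpl35, at 673 FPKM in HSC and 386 in CLP. The control was higher than HSC for 62 of 74 members, with a median of 0.33 beside -0.12 over all genes, but no member reached 2-fold, where 10.1% of genes did. Against CLP, 3 members were at least 2-fold higher in the control (Rps27, Rpl37a and Rps24), where 10.8% of genes were, with a median of 0.38. The 2 members at least 2-fold lower in the control, against HSC (15.7% of genes) as against CLP (16.5%), were the paralogs Rps27l and Rpl3l. Other cell types moved with these columns: for control, HSC and CLP the 7 neutrophil markers summed to 788, 11248 and 14827 FPKM (5, 7 and 7 of them at 1 FPKM or more). The 4 B cell markers, all above 1 FPKM, summed to 1538, 361 and 485, and the 4 T cell markers to 217, 6.19 and 10.4 (4, 1 and 2 at 1 FPKM or more). Their part in the differences was not tested.

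The paralogs were set beside their parents in FPKM. In the recovered libraries FPKM of this pair is scaled to all annotated exons, not to the mRNA. These span 1043 bases for Rps27, beside a coding transcript of 345. For Rps27l they span 816 bases, beside a transcript of 499. The ratios are therefore read between columns of a format and not as relative amounts of mRNA. Rps27l differs from Rps27 by a few residues and is known as a p53 target. Rps27l went from 21.3 FPKM in the control to 71.8 in HSC and 84.2 in CLP, while Rps27 measured 2357, 1196 and 782. In FPKM the parent thus exceeded the paralog 111-fold, 16.7-fold and 9.29-fold. In the second format the CMP libraries had 91.3 and 93.2 FPKM of Rps27l, those of spleen Ter 72.2 and 63.9, liver Ter 39.1 and 43.2, and MEP 18.5 and 20.9. The ratio of the pair was 12.6 and 18.0 for spleen Ter, 9.43 and 8.07 for MEP, 5.55 and 5.15 for CMP, and 3.45 and 3.39 for liver Ter; no 2 groups overlapped. Of the 50-base windows of the Rps27 transcript, 98.6% were also found in transcripts of other genes, and 22.4% of those of Rps27l, so the level of Rps27 is the less certain.

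**Figure D4:**
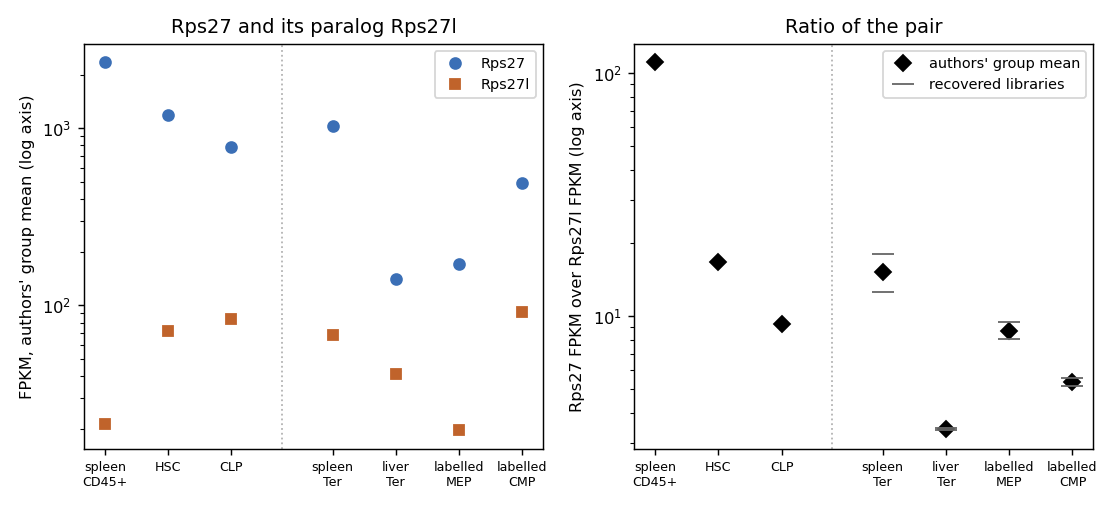
Rps27 and Rps27l in FPKM (left) and the ratio of Rps27 to Rps27l (right), both on log axes, in the 7 columns; the dotted line parts the 2 number formats, symbols are the authors' group means and dashes the recovered libraries. Within the first format the ratio is highest in the CD45+ spleen control (111), and within the second it is lowest in liver Ter (3.42).

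The tissue-restricted paralogs were near or at the floor. Rpl10l, the testis form of Rpl10, was listed at 0 in all 7 columns, with Rpl10 between 151 and 720 FPKM. Rpl39l, another testis form, was at most 0.766 FPKM (the control), with Rpl39 between 52.5 and 583. Rpl3l, the form of Rpl3 in striated muscle, reached 2.48 FPKM in CLP and 2.19 in HSC and was 0.0387 in the control, with Rpl3 between 99.5 and 878. Rps4l was not analysed here.

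Of the genes named most often for Diamond-Blackfan anaemia, Rps19 and Rpl5 were called higher in spleen Ter than in liver Ter. Rpl5, which with Rpl11 and 5S rRNA holds back Mdm2 and so raises p53, was at 139 and 223 FPKM in spleen Ter, against 62.4 and 64.4 in liver Ter (1.46, SE 0.21); it lost the call with median-of-ratios scaling (0.22) and quantile normalization (0.74). Rpl11, at 124 and 142 against 80.2 and 80.3, had a log2 fold change of 0.71 (SE 0.12) and Rpl35a one of 0.56 (SE 0.18), neither of them called. Rps19, Rpl5, Rpl11 and Rpl35a were called lower in MEP than in CMP, from -1.45 (Rpl35a) to -2.17 (Rpl5). Rps7, Rps10, Rps24 and Rps26 had no recovered libraries; by the authors' means spleen Ter and liver Ter had 472 and 480 FPKM of Rps26, and 612 and 348 of Rps7.

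Most members followed the class across the 8 libraries. Pearson's r between a member and the median of the 61, on log2(FPKM + 1), was at least 0.95 for 27 and had a median of 0.94; the points share libraries and depths, so this is a description. Rpl7 (0.997), Rps6 (0.997), the substrate of S6 kinase, and Rpl34 (0.992) were most like the median. The 8 members under 0.8 were Rpl3l (0.07), Rpl23a (0.18), Rpl39l (0.28), Rpl28 (0.58), Rpl7a (0.61), Rpl24 (0.65), Rps27 (0.72) and Rpl35 (0.79). The 19 tested members with a run of at least 8 pyrimidines anywhere in the start window had a median log2 fold change of 0.71 in spleen Ter against liver Ter, and the 24 without one 0.70. In spleen Ter against MEP the medians were 0.92 and 1.05, in liver Ter against MEP 0.26 and 0.20, and in MEP against CMP -1.89 and -1.91; these are descriptions with no test.

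Rpl24, Rpl13a and Rpl23a stood far lower in the second number format than in the first. Rpl24, a large subunit protein of the subunit interface, was between 722 and 818 FPKM in control, HSC and CLP and reached no more than 2.01 FPKM in the other 4 columns. Rpl13a, known for its part in the interferon-γ response, ranged from 614 to 1085 FPKM in the first format and from 2.88 to 15.2 in the second. Rpl23a was 1747 to 2487 FPKM against 7.66 to 194. All 3 have exons that overlap another annotated gene (GENCODE M21, GRCm38): 47.0% of the exonic bases of Rpl24 (chr16:55966275-55971435), all with Gm28037 on the same strand, 35.4% of those of Rpl13a (chr7:45125558-45128761), most with Gm45713 on the same strand, and 62.3% of those of Rpl23a (chr11:78180932-78183584), most with Tlcd1 on the other strand. Overlap was not particular to these 3: Rpl35 had 66.2%, with Wdr38 on the other strand, and a difference of 2.36 between formats on the log2 scale, and Rps10 (28.7%) one of 1.38, Rpl5 (26.7%) one of 0.95 and Rpl31 (25.3%) one of 0.91.

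Over the 74 members at 1 FPKM or more, 72 were higher in the first format, by a median of 1.08 on the log2 scale, beside 0.37 over all 16297 such genes. Rpl41 (-0.81), Rpl10 (-0.27), Rps25 (0.08) and Rps27l (0.09) differed least or the other way. Over these 74 genes the difference and the percentage of exonic bases inside another gene had a Pearson r of 0.58 and a Spearman rho of 0.13 (a description across genes, which are not independent). Pseudogene rows went the same way: the 266 pseudogenes named after members held 13.4, 12.02 and 14.4 FPKM per 100 FPKM of the members in control, HSC and CLP, against 1.36 to 2.35 in the second format. The median member had 56.0% of its 50-base windows in transcripts of other genes, and Rpl3l and Rpl39l were among those with none. The share of windows had a Pearson r of 0.12 with the difference between formats. How reads with several places were treated in either format is not given in the sources used here.

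**Figure D5:**
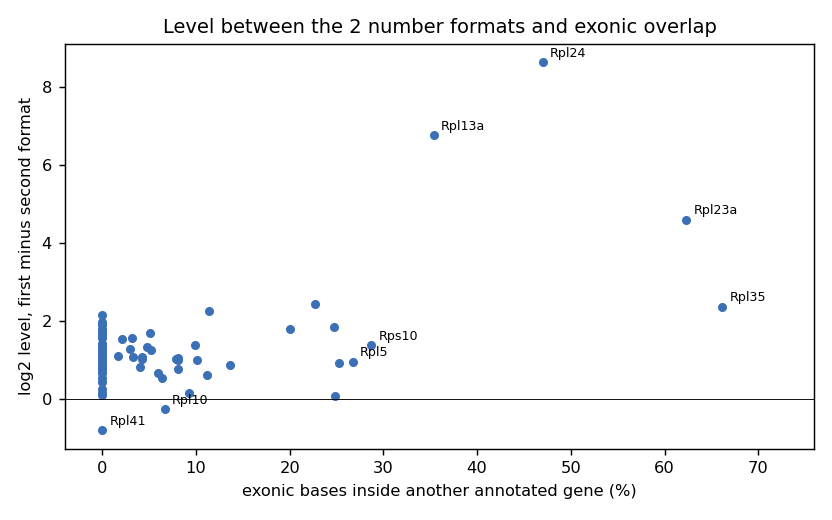
Difference in log2(FPKM + 1) between the mean of the first number format and the mean of the second, for 74 ribosomal protein genes, against the percentage of the gene's exonic bases that overlap another annotated gene. Rpl24 (47.0%), Rpl13a (35.4%) and Rpl23a (62.3% with both strands counted) lie far above the rest.

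Genes of the translation machinery outside the rule were read as lists beside the members. Of all 12953 tested genes, 24.4% were called lower in MEP than in CMP, and 42.8% higher in spleen Ter than in liver Ter. Of 10 ribosomal protein genes whose symbols fall outside the rule, 7 were tested, and all 7 were called lower in MEP than in CMP and 4 higher in spleen Ter than in liver Ter. Rplp1, a stalk protein, was highest in CMP (2097 FPKM), then spleen Ter (1523), liver Ter (991) and MEP (376). Translation factors with a TOP start gave 9 tested genes of 14; all 9 were lower in MEP than in CMP, with a median of -1.89. Of 25 ribosome biogenesis genes, 23 were called lower in MEP than in CMP (median -2.41), and 16 higher in spleen Ter than in liver Ter (median 1.30). Of 78 mitochondrial ribosomal protein genes, 77 were tested; 45 were lower in MEP than in CMP (median -1.13) and 47 higher in spleen Ter than in liver Ter (median 1.17). All these values are in FPKM as deposited. How the lists' calls in spleen Ter against liver Ter change with median-of-ratios scaling is not given here.

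The rescue factors, which free stalled ribosomes, differed among themselves. Pelo, which splits stalled ribosomes together with Hbs1l, was at 2.77 and 3.91 FPKM in spleen Ter, against 14.0 and 14.9 in liver Ter, a log2 fold change of -1.84 (SE 0.19, limma adjusted p = 0.0002). Nemf, which tags stalled chains, averaged 29.4 FPKM in spleen Ter against 9.77 in liver Ter (1.49, SE 0.16). Of the 6, 1 was called higher and 2 lower in spleen Ter, where 42.8% of all tested genes were called higher and 11.7% lower. Among 10 regulators, beside the same all-gene shares, Myc and Trp53 were called higher in spleen Ter than in liver Ter, and Mxi1 and Larp1 lower. How the calls of rescue factors and regulators change with median-of-ratios scaling, which turned the members' median in this comparison, is not given here. Myc, a known activator of ribosome production, reached 90.1 and 55.3 FPKM in CMP and 82.4 and 70.1 in spleen Ter but 3.98 and 4.80 in MEP and 2.24 and 2.90 in liver Ter. Its log2 fold change was 4.44 (SE 0.26) in spleen Ter against liver Ter and -3.74 (SE 0.26) in MEP against CMP. Larp1, the TOP mRNA binding protein, was at 11.1 and 23.8 FPKM in spleen Ter, against 35.2 and 32.4 in liver Ter (-1.01, SE 0.33, adjusted p = 0.030).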

How the data were processed

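The authors deposited 1 table of FPKM values, 1 column per group; the unit was read from the values, and the build is mm10 per the submitters' processing notes. The sources used here do not give aligner, counter or annotation. Of 49588 lines, 2 had no gene and 3 were repeats. In 4 columns each mean comes from whole fragments of 2 libraries, divided by exon length and depth; solving for these fragments recovered 13752 of 14049 genes at 1 FPKM or more (97.89%) and 61 members: 57 by the annotated exon length, 3 by the length of some transcripts and 1 by a searched length. The method and the test were also tested on simulated data. Recovered FPKM went into limma 3.58.1 (R 4.3.3) on log2(FPKM + 1), with 1 coefficient per group and a trended prior (4 residual and 2.61 prior degrees of freedom), on 12953 genes with at least 1 FPKM in 2 libraries; this left 59 members, since Rpl39l and Rpl3l fell under the filter. A pseudocount of 1 understates changes of low genes. Named members were, per comparison, the 4 largest called rises and falls, the 5 highest and lowest levels of each format, paralogs, anaemia genes and the 4 members most and least apart between formats; Rps9, Rpl9, Rpl7a, Rps6 and genes of other lists named with values were chosen after their values were seen. Members and lists were chosen with earlier results of these data known. Alternatives were another pseudocount, other filters, 3 scalings, no minimum fold and leaving out each library. Exonic overlap and shared 50-base windows were computed from GENCODE M21 transcripts. Libraries held 13413530 to 28537889 fragments, so genes under 1 FPKM rest on few of them (Rpl24 on 2 to 39 per library). GENCODE M21 matched 49324 of 49583 genes by ID. Some members and markers that these rules name are not reported here.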

Additional observations from a re-analysis of the deposited data

How the results depend on the processing

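Of the values that sum up a comparison or a share, 196 recomputed under an alternative kept their direction and stayed near the reported value, 36 moved and 2 turned sign; of the values of single named genes, 508 stayed on their side of the threshold, 6 lost the call and 4 gained it. These tallies include settings that left out a library of a group outside the comparison. There the members' fold changes cannot change, so part of the values that stayed could hardly have moved. For spleen Ter against liver Ter, median-of-ratios scaling gave 3 members higher and 10 lower with a median of -0.52, quantile normalization 9 higher with a median of 0.21, totals without globin genes a median of 0.59, and no minimum fold 40 higher; all genes split into 5549 higher and 1515 lower as reported and 3462 and 3201 with median-of-ratios scaling. For spleen Ter against MEP, quantile normalization gave 17 higher and 3 lower with a median of 0.56, and no minimum fold 51 higher and 3 lower. For liver Ter against MEP, a pseudocount of 0.1 gave 1 lower, median-of-ratios scaling 48 higher with a median of 1.35, quantile normalization 8 higher, totals without globin genes a median of 0.45, and no minimum fold 19 higher and 2 lower. Leaving out members that share over 50% of their 50-base windows with other genes, an alternative chosen after seeing the data like that of exonic overlap over 25%, gave a median of 0.45 over the 25 left. For MEP against CMP, the median was -1.15 with median-of-ratios scaling and -1.39 with quantile normalization. In the first format, the sign of CLP against HSC turned with quantile normalization (0.027); control against HSC had 2 members higher with either scaling and a median of 0.49 with median-of-ratios scaling; and control against CLP had 9 higher and a median of 0.59 with median-of-ratios scaling and a median of 0.16 with quantile normalization. Summed with the pseudogenes named after them, the members' shares were 18.9% (control), 14.7% (HSC) and 14.1% (CLP), and without globin genes 7.49% (spleen Ter) and 7.54% (liver Ter). The cause of these moves was not tested.

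With each library left out in turn, the lone library being assumed to vary like the other groups, spleen Ter against liver Ter ranged from 18 (without spleen Ter library B) to 28 (without library A) members higher, 1 to 2 lower and a median of 0.59 to 0.92. Spleen Ter against MEP had 27 to 42 higher, 1 lower throughout and medians of 0.91 to 1.18. Liver Ter against MEP had 4 to 6 higher, none lower, and medians of 0.19 to 0.36. MEP against CMP had 57 to 58 lower, none higher, and medians of -1.98 to -1.83. No paired analysis was possible because the recovered libraries carry no replicate numbers. Members with a few fragments per library, such as Rpl24, Rpl39l and Rpl3l, are limited by depth.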
